A study of Mus musculus with 22 samples.

Results

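The genes described here are 8 members of the PERK, ATF4 and CHOP branch of the cellular stress response, Eif2ak3, Atf3, Atf4, Atf5, Ddit3, Ddit4, Ppp1r15a and Asns, out of 12596 genes in the deposited table. They were taken by symbol and all 8 were present, with at least 35 reads in each library. The list was chosen from results of these data in which the RNA of hTyr and EYFP animals had been compared after immunoprecipitation, so for the members the values of that comparison, and of any comparison that uses its IP libraries, are given as a description. No p-value is printed for them there, and in the main fits a count of members past a threshold stands beside the share of all genes. The mice were a cross of a Th-cre line with a Slc6a2-eGFP/Rpl10a line on a C57Bl/6 background, and all groups share both transgenes. Slc6a2 encodes the noradrenaline transporter, so its regulatory sequence places an eGFP-tagged ribosomal protein in noradrenergic cells, and an immunoprecipitation of the tag (IP) collects RNA bound to the ribosomes of those cells. The infused agent was hTyr, human tyrosinase, a melanin-forming enzyme, in 5 animals and the fluorescent protein EYFP in 6. The number in a sample title is taken here as the animal, and whether tissue was pooled is not given in the sources used here. Each number has 1 IP library, labelled noradrenergic, and 1 library of the RNA before immunoprecipitation (input), labelled total hindbrain. Age, dose and time after infusion are not given in the sources used here. The series title sets the question as what tyrosinase-driven neuromelanin does to the locus coeruleus, the main noradrenergic nucleus of the hindbrain.

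As background, the branch begins at PERK, a kinase of the endoplasmic reticulum membrane that phosphorylates the initiation factor eIF2 when unfolded protein accumulates there. Phosphorylated eIF2 lowers protein synthesis in general while the mRNA of the transcription factor ATF4 is translated more, through short reading frames upstream of its coding sequence. ATF4 activates genes of amino acid supply and the transcription factors ATF3 and CHOP, and GADD34, the product of Ppp1r15a, brings a phosphatase back to eIF2. Other kinases also feed into ATF4, so the pathway is shared by several stresses.

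RefSeq promoter entries of assembly GRCm38.p6, the build named mm10 in the submitters' processing notes, were found for 8 of 8 genes. The 250 bases before the annotated start are printed for the 3 genes whose hTyr and EYFP IP libraries did not overlap (Atf3, Ddit3 and Ppp1r15a) and for Asns, the member with the largest IP enrichment in control animals. Capitals mark a match to the core of the C/EBP-ATF response element (CARE, TGATGNAA, read on both strands) or to the cyclic AMP response element (CRE, TGACGTCA). The windows are chr1:191183334-191183583 on the minus strand for Atf3, chr10:127290543-127290792 on the plus strand for Ddit3, chr7:45526269-45526518 on the minus strand for Ppp1r15a and chr6:7693210-7693459 on the minus strand for Asns, each written 5′ to 3′ along its gene.
Atf3: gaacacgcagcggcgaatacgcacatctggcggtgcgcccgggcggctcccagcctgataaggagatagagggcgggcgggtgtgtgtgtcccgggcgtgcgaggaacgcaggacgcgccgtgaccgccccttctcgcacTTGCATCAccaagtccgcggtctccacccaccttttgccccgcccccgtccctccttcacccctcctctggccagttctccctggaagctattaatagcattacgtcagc
Ddit3: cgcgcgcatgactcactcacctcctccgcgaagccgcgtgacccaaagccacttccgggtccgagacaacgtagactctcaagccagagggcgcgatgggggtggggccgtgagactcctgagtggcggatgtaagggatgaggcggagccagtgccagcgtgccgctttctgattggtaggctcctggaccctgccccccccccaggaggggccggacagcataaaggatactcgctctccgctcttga
Ppp1r15a: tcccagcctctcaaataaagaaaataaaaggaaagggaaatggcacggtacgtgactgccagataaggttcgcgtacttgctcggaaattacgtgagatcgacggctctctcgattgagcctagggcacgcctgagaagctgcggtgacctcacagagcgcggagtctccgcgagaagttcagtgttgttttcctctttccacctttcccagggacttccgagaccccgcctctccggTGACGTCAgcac
Asns: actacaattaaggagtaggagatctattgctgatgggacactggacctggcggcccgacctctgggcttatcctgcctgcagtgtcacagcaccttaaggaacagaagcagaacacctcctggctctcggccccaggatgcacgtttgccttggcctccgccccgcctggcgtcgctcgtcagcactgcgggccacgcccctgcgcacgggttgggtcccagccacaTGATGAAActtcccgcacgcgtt
The CARE core occurred in the Atf3 window as TTGCATCA, beginning 110 bases before the start, and in the Asns window as TGATGAAA, beginning 23 bases before it. The CRE occurred in the Ppp1r15a window 12 bases before the start. Neither was found in the Ddit3 window or in those of the other 4 genes. Of 32851 RefSeq promoter windows of that length, 3.45% held the CARE core and 1.55% the CRE. A match is a description of letters and not a measured binding site.

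The 22 libraries held 12654489 to 25100142 reads in the filtered table, recovered from the log2 values. IP depth was 15680491 to 20368032 reads in EYFP and 12654489 to 19043798 in hTyr, and input depth was 16988860 to 21480570 in EYFP and 18771136 to 25100142 in hTyr. Against the cell type in the labels, 12 noradrenergic marker genes summed to 757.9 to 1487 CPM (read counts scaled to the library total) in EYFP IP and 887 to 2352 in hTyr IP, compared with 271.4 to 310.9 and 269 to 313.6 in the inputs. The IP libraries also held RNA of other cells: 9 oligodendrocyte genes summed to 5967 to 8279 CPM in hTyr IP and 6006 to 7731 in EYFP IP, 7 astrocyte genes to 1565 to 1969 and 1390 to 1982, 8 microglia genes to 200.4 to 364.5 and 181.1 to 334.8, and 10 genes of neurons with other transmitters to 1126 to 1463 and 1253 to 1555. For those neurons the input sums were lower without overlap, at 887 to 1099 in hTyr and 899.5 to 1177 in EYFP. The oligodendrocyte, astrocyte and microglia sums overlapped between IP and input. A higher level in IP than in input therefore does not by itself mark RNA of noradrenergic cells. None of these markers stood at 0 in any group. In bulk RNA, a change in the number of cells of a type and a change of RNA per cell cannot be told apart. Libraries are named as in the labels, so that IP_501 and Pre_501 are the IP and the input of the same animal. All levels below are log2 CPM unless said otherwise, and differences are in log2 units.

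Atf3, Ddit3 and Ppp1r15a were the members that stood higher in hTyr IP than in every EYFP IP library. The hTyr minus EYFP difference was 1.54 for Atf3 (SE 0.25, a 2.9-fold ratio), 1.14 for Ddit3 (SE 0.19, 2.2-fold) and 0.71 for Ppp1r15a (SE 0.16, 1.63-fold), with 5 hTyr and 6 EYFP animals. The other 5 members differed by 0.05 to 0.17, and their libraries overlapped. All 8 differences were positive, with a median of 0.15 beside -0.01 over all genes. Since the list was chosen on this contrast, its counts carry no weight: 2 of 8 members (Atf3 and Ddit3) had an adjusted p under 0.05 where 0.0556% of all genes did, and 3 of 8 had hTyr libraries all above the EYFP libraries where 0.389% did. Just inside and just outside the set without overlap stood Ppp1r15a at 0.71 and Atf5 at 0.17.

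**Figure D1:**
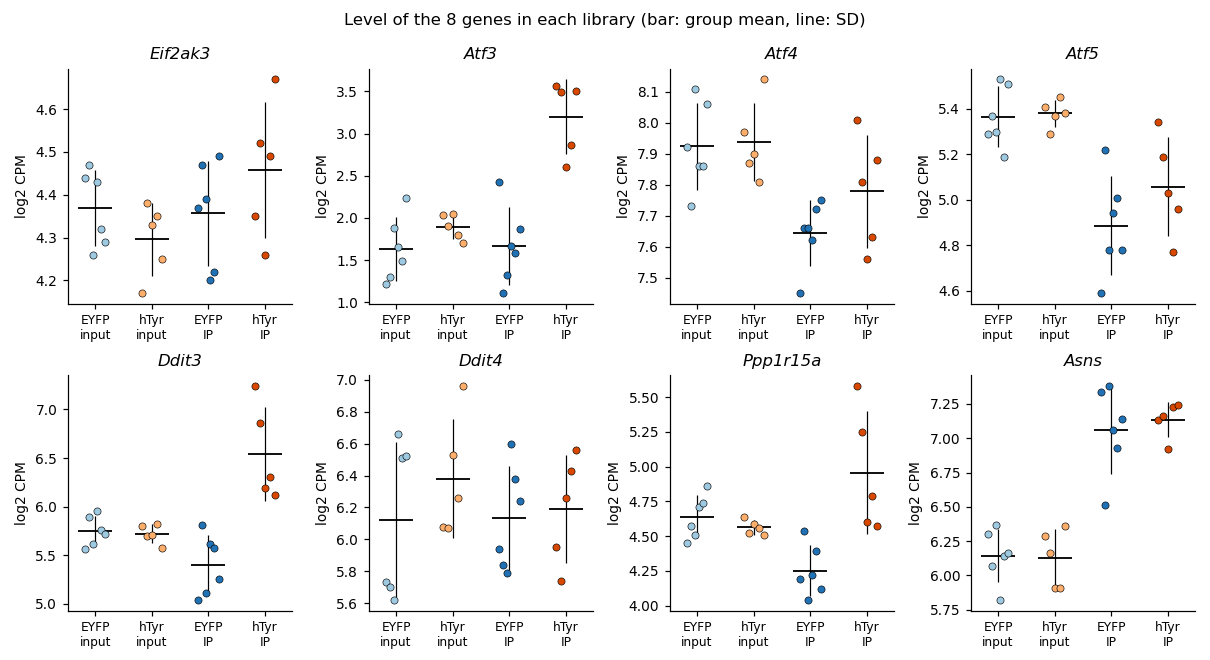
Level of each of the 8 genes (y axis, log2 CPM, a separate scale per panel that does not begin at 0) in every library of the 4 groups, with 6 EYFP and 5 hTyr points, the group mean as a bar and the SD as a line. Atf3, Ddit3 and Ppp1r15a in hTyr IP lie above all EYFP IP points, while Asns lies higher in both IP groups than in both inputs.

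Eif2ak3 encodes PERK (chr6:70844484-70905241, plus strand). Its level was 4.35, 4.52, 4.26, 4.49 and 4.67 in the hTyr libraries IP_501, IP_502, IP_508, IP_509 and IP_510, and between 4.20 and 4.49 in EYFP IP, with a median of 4.38. In input it was 4.17 to 4.38 in hTyr and 4.26 to 4.47 in EYFP. The 4 groups overlapped throughout, and no neighbouring pair of group means differed by more than their pooled SD. Group means ran from 4.30 to 4.46.

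Atf4 encodes the transcription factor at the centre of the branch (chr15:80255184-80257545, plus strand) and was the most abundant member per kilobase of transcript in every group. Mean CPM per kilobase was 116 in EYFP IP and 128 in hTyr IP, against 141 and 143 in the inputs. In hTyr IP its log2 levels were 8.01, 7.81, 7.56, 7.63 and 7.88 in IP_501, IP_502, IP_508, IP_509 and IP_510. In EYFP IP they ran from 7.45 to 7.75, with a median of 7.66. IP_501, IP_502 and IP_510 lay above the EYFP range and IP_508 and IP_509 inside it. The IP difference of 0.13 (SE 0.09) was of the size of the pooled SD of 0.15.

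Atf5 encodes a relative of ATF4 with a similar translational control (chr7:44812256-44816658, minus strand). Its hTyr IP levels were 5.34 in IP_501, 5.19 in IP_502, 5.03 in IP_508, 4.77 in IP_509 and 4.96 in IP_510, against 4.59 to 5.22 in EYFP IP with a median of 4.86. IP_501 alone exceeded the EYFP range. The difference was 0.17 (SE 0.12).

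Atf3 encodes a stress-induced transcription factor that is also known from injured neurons (chr1:191170296-191183333, minus strand). It was the least abundant member per kilobase in EYFP IP, at a mean of 1.67 CPM per kilobase, and reached 4.81 in hTyr IP. The hTyr IP levels were 3.56 in IP_501, 3.49 in IP_502, 2.60 in IP_508, 2.86 in IP_509 and 3.50 in IP_510. The EYFP IP levels were 2.43 in IP_504, 1.11 in IP_505, 1.32 in IP_506, 1.67 in IP_507, 1.59 in IP_511 and 1.87 in IP_512. The groups did not overlap, although IP_508 and EYFP IP_504 were only 0.17 apart. In both inputs the gene stayed between 1.22 and 2.24, below every hTyr IP library. The size of this difference varied with the processing. It was 0.79 with a pseudocount of 5 CPM, which by its arithmetic shrinks differences at such low levels. It was 1.60 on the recovered reads with voom and 1.94 after quantile normalization.

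Ddit3 encodes CHOP, a transcription factor linked to cell death under prolonged stress (chr10:127290793-127296291, plus strand). In hTyr IP it stood at 7.24 in IP_501, 6.86 in IP_502, 6.19 in IP_508, 6.31 in IP_509 and 6.12 in IP_510. In EYFP IP it stood at 5.04 in IP_504, 5.81 in IP_505, 5.11 in IP_506, 5.62 in IP_507, 5.57 in IP_511 and 5.26 in IP_512. Every hTyr IP library was above every EYFP IP library, and IP_501 and IP_502 were the highest by a margin. Input levels of 5.58 to 5.82 in hTyr lay within the 5.56 to 5.96 of EYFP. Ddit3 overlaps Mars on the opposite strand by 68 bases, and Mars differed by -0.07 (SE 0.09) in IP. Whether the counting used strand is not given in the sources used here.

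Ppp1r15a encodes GADD34, the stress-induced partner of the phosphatase that acts on eIF2 (chr7:45522917-45526268, minus strand). Its hTyr IP levels were 5.58 in IP_501, 5.25 in IP_502, 4.60 in IP_508, 4.79 in IP_509 and 4.57 in IP_510. The EYFP IP levels were 4.19 in IP_504, 4.54 in IP_505, 4.04 in IP_506, 4.22 in IP_507, 4.39 in IP_511 and 4.12 in IP_512. The groups separated only narrowly, with the lowest hTyr library at 4.57 and the highest EYFP library at 4.54. As with Ddit3, IP_501 and IP_502 were highest and the other 3 hTyr animals lay close together.

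Asns encodes asparagine synthetase, a standard ATF4 target of amino acid synthesis (chr6:7675165-7693209, minus strand). Its levels in hTyr IP were 7.13 in IP_501, 7.16 in IP_502, 6.92 in IP_508, 7.23 in IP_509 and 7.24 in IP_510. In EYFP IP they were 7.34 in IP_504, 6.51 in IP_505, 7.38 in IP_506, 7.06 in IP_507, 6.93 in IP_511 and 7.14 in IP_512. The hTyr libraries fell inside the EYFP range, and the difference of 0.08 (SE 0.13) was below zero, at -0.03, without EYFP IP_505, the lowest library.

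Ddit4 encodes REDD1, an inhibitor of the growth kinase complex mTORC1 that also answers to glucocorticoids and low oxygen (chr10:59949675-59951770, minus strand). It differed by 0.05 (SE 0.16) between the treatments in IP, and that sign changed without EYFP IP_506 or without hTyr IP_509 or IP_510. The spread between animals was the main feature of this gene, and it followed the animal number in the labels. In IP the 5 animals up to IP_506 stood at 5.74 to 5.95 and the 6 from IP_507 on at 6.24 to 6.60. In input the same animals stood at 5.62 to 6.08 and at 6.26 to 6.96. The 2 runs of numbers did not overlap in either fraction, each run holds animals of both treatments, and the labels do not say what the number stands for. No other member was separated in this way in IP or in input. This split was noticed in the values of Ddit4 and is given without a test. How many of all genes separate at the same numbers was not counted, so the split is not shown to be particular to Ddit4.

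**Figure D2:**
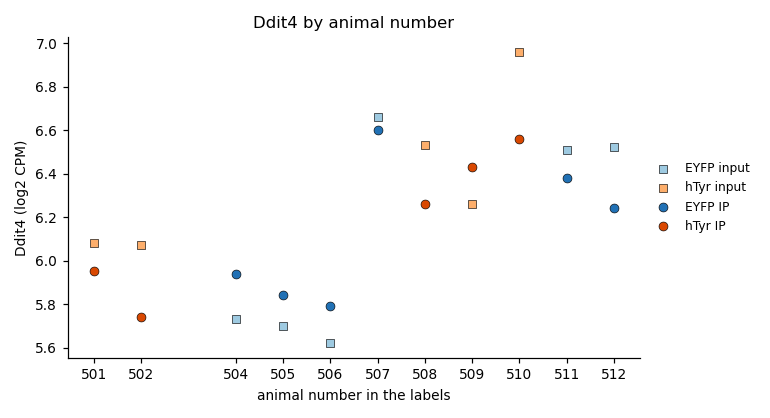
Level of Ddit4 (y axis, log2 CPM, not from 0) against the animal number in the labels (x axis), with circles for IP, squares for input and colours for the 4 groups. The 5 animals up to IP_506 lie at 5.62 to 6.08 and the 6 from IP_507 on at 6.24 to 6.96.

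The hTyr difference was therefore also taken within each run of animal numbers, a step added after the Ddit4 values were seen. Among animals up to IP_506 (2 hTyr, 3 EYFP), the IP difference was 1.90 for Atf3, 1.73 for Ddit3 and 1.16 for Ppp1r15a. Among those from IP_507 on (3 and 3), it was 1.27, 0.72 and 0.41. All 3 genes stood higher in hTyr in both runs. This follows from the lack of overlap of their IP libraries, so it adds nothing to that. For Ddit3 and Ppp1r15a the difference was more than double in the first run, which holds IP_501 and IP_502, and the difference between the runs was not tested. Atf4 and Atf5 differed by 0.32 and 0.41 in the first run and by -0.01 and 0.01 in the second, while Asns differed by 0.06 and 0.09, Eif2ak3 by 0.02 and 0.17 and Ddit4 by -0.01 and 0.01.

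IP_501 and IP_502 also had 2 of the 3 highest noradrenergic marker sums in IP, at 2352 and 1477 CPM, beside 887, 1003 and 1046 in IP_508, IP_509 and IP_510 and 1487 in EYFP IP_504. EYFP IP_504, with a sum like that of IP_502, had the lowest Ddit3 level of all IP libraries (5.04) and the highest EYFP level of Atf3 (2.43). The sum of 5 endothelial genes was 64.07 CPM in IP_501, 27.69 in IP_502, 64.62 in IP_508, 59.45 in IP_509 and 71.39 in IP_510, and 38.4 to 52.44 in EYFP IP. It was thus above every EYFP IP library in 4 of 5 hTyr libraries and below all of them in IP_502, the library with the second highest Ddit3 level. The part of these markers in the differences was not tested. With the EYFP IP mean as zero, Atf3 deviated by 0.93 to 1.89 in the hTyr animals, Ddit3 by 0.72 to 1.83 and Ppp1r15a by 0.32 to 1.33. IP_510 combined one of the highest Atf3 deviations (1.83) with low ones for Ddit3 (0.72) and Ppp1r15a (0.32).

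**Figure D3:**
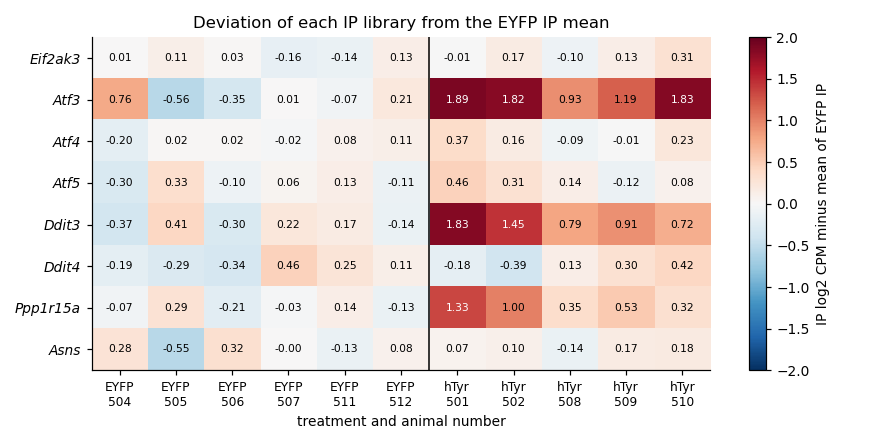
Deviation of each IP library from the EYFP IP mean (colour and printed value, log2 CPM) for the 8 genes (rows) in 6 EYFP and 5 hTyr animals (columns). The rows of Atf3, Ddit3 and Ppp1r15a are positive in all 5 hTyr animals, with Ddit3 at 1.83 in IP_501 and 0.72 in IP_510.

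The count of 2 members with an adjusted p under 0.05 is likewise a description of the contrast behind the list. It was 0 without IP_501, IP_502, IP_506, IP_509, IP_511 or IP_512, 1 without IP_504, IP_505, IP_507 or IP_510, and 2 without IP_508. The share of all genes called with 1 animal left out was not counted. With 1 animal left out, the difference of Atf3 lay between 1.42 and 1.69, that of Ddit3 between 0.97 and 1.25 and that of Ppp1r15a between 0.55 and 0.80.

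In input, which asks whether the difference is seen in the hindbrain RNA as a whole, no member passed the test. Atf3 and Ddit4 were each 0.26 higher in hTyr (SE 0.19 and 0.21), and the other 6 differed by -0.07 to 0.02. By limma, 0 of 8 had an adjusted p under 0.05, beside 0.00794% of all genes. An unadjusted p under 0.05 was found for 0 of 8, beside 0.992% of all genes higher in hTyr and 2.04% lower. The adjusted p-values were 0.99 to 0.996, and voom on the recovered reads also called 0. The median of the members was 0, beside -0.01 over all genes. For Ddit3 the input difference was -0.03 (SE 0.08) and for Ppp1r15a -0.07 (SE 0.08), both small beside their IP differences. Noradrenergic RNA was a smaller part of input, with Dbh at a mean of 3.24 in EYFP input and 7.26 in EYFP IP. A difference confined to noradrenergic cells could therefore be missed in input.

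**Figure D4:**
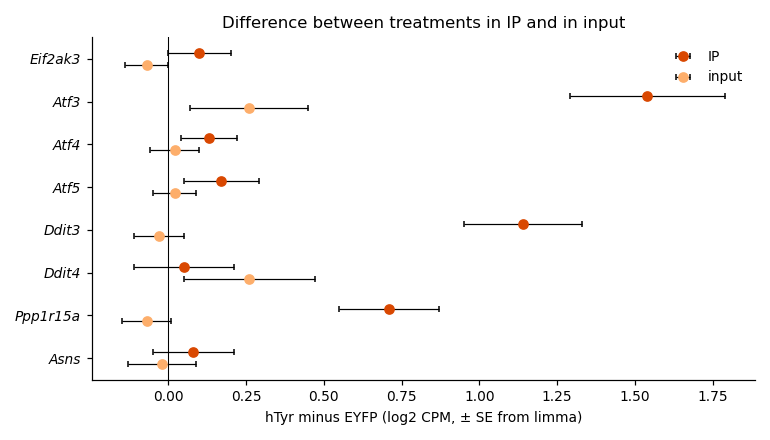
Difference between hTyr and EYFP (x axis, log2 CPM) for each of the 8 genes (y axis) in IP and in input, with points for the limma estimate and bars for ± 1 SE, from 5 hTyr and 6 EYFP animals. The IP points of Atf3 (1.54), Ddit3 (1.14) and Ppp1r15a (0.71) lie to the right of their input points, and the other 5 pairs lie between -0.07 and 0.26.

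The IP difference minus the input difference was 1.27 for Atf3 (SE 0.32), 1.17 for Ddit3 (SE 0.22) and 0.78 for Ppp1r15a (SE 0.19). The remaining members lay between -0.20 (Ddit4) and 0.17 (Eif2ak3). This quantity contains the contrast the list was chosen on and is a description. By limma, 3 of 8 had an unadjusted p under 0.05, all positive, beside 2.19% of all genes positive and 1.12% negative. An adjusted p under 0.05 was found for 0 of 8 (0 also by voom), beside 0.00794% of all genes. With the animal as a replicate block the count was 1, and it was Ddit3. The share of all genes called in that setting was not counted.

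IP against input in EYFP animals shows how the branch was represented in control IP RNA, where the marker sum of other neurons exceeded input. Its EYFP IP libraries are also the reference arm of the contrast behind the list, and a gene listed because that arm was low would tend to be low here too, so no p-value is given for the members. Asns stood higher in IP by 0.92 (SE 0.13, 1.89-fold), in 6 of 6 animals and without overlap of the groups. Atf5, Ppp1r15a, Ddit3 and Atf4 stood lower in IP in 6 of 6 animals each. Their differences were -0.48 for Atf5 (SE 0.10), -0.39 for Ppp1r15a (SE 0.10), -0.35 for Ddit3 (SE 0.12) and -0.28 for Atf4 (SE 0.07), and their libraries overlapped between the fractions.

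Eif2ak3 differed by -0.01, Ddit4 by 0.01 and Atf3 by 0.04, and median centring turned the sign of Ddit4 and Atf3 to -0.04 and -0.02. As a count beside the background, 1 of 8 members had an adjusted p under 0.05 with a higher level in IP and 4 of 8 with a lower one, where 28.5% and 28.1% of all genes did. The count of 4 was 3 without the EYFP animal of IP_506 or IP_512, since Ddit3 then dropped out. The median of the members was -0.15, beside -0.03 over all genes.

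In hTyr animals, whose IP libraries are the other arm of the contrast behind the list, Ddit3 and Ppp1r15a stood on the other side of their input. These values too are a description. Ddit3 was higher in IP than in input by 0.82 (SE 0.17) and Ppp1r15a by 0.39 (SE 0.16), each in 5 of 5 animals. Atf3 was higher by 1.31 (SE 0.21) and Asns by 1.01 (SE 0.10), also in 5 of 5. Atf5 stood at -0.32 (SE 0.10), lower in 5 of 5 animals, while Eif2ak3 was at 0.16, Atf4 at -0.16 and Ddit4 at -0.19.

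An adjusted p under 0.05 was found for 4 of 8 members with a higher level in IP and for 1 of 8 with a lower one, where 27.4% and 27% of all genes had it. Ppp1r15a left that count without the animal of IP_501, IP_502 or IP_509, and Atf5 without that of IP_508, IP_509 or IP_510. Ppp1r15a also left it in some processing alternatives, and was called in 6 of 13 settings in all.

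Animal by animal, Ddit3 in IP minus input was -0.53 to -0.08 in EYFP (median -0.40) and 0.48 to 1.43 in hTyr (median 0.54). For Ppp1r15a the range was -0.74 to -0.03 in EYFP and 0.01 to 0.94 in hTyr. Neither pair of ranges overlapped. The share of all genes without such overlap was not counted, and these differences contain the contrast behind the list. The range for Atf3 was -0.56 to 1.21 in EYFP and 0.55 to 1.80 in hTyr, which overlapped through EYFP IP_504. Asns ran from 0.44 to 1.24 in EYFP and from 0.84 to 1.33 in hTyr, and these ranges overlapped.

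**Figure D5:**
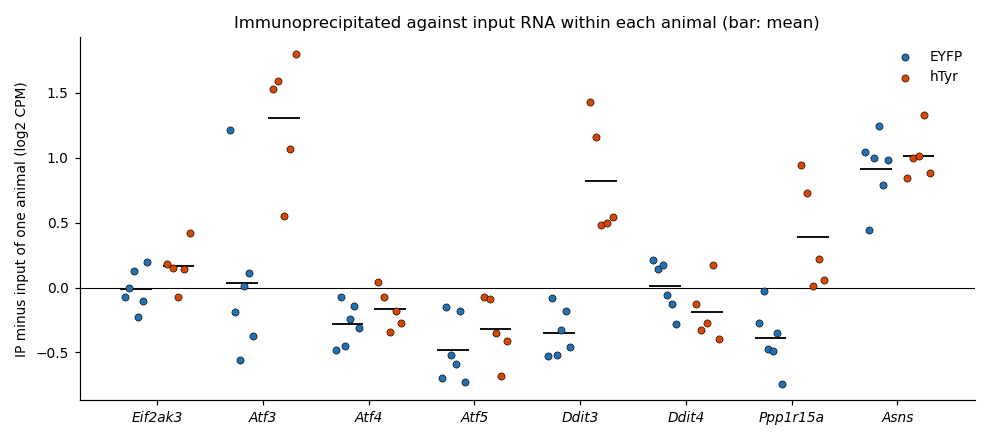
IP level minus input level of the same animal (y axis, log2 CPM) for the 8 genes (x axis), with 1 point per animal (6 EYFP, 5 hTyr) and the mean as a bar. Ddit3 lies at or below -0.08 in all EYFP animals and at or above 0.48 in all hTyr animals, while Asns lies above 0 in all 11.

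The order of the group means differed between members. For Atf3 the order was hTyr IP, hTyr input, EYFP IP and EYFP input, and only the step from hTyr IP to hTyr input exceeded the pooled SD. Ddit3 ran from hTyr IP through EYFP input and hTyr input to EYFP IP, with the inputs 0.03 apart and the other steps beyond the spread. Ppp1r15a had the same order, but the step of 0.32 from hTyr IP to EYFP input was within the pooled SD of 0.33. Asns had hTyr IP and EYFP IP together, 0.08 apart, and the inputs 0.92 below.

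The pathway around the members was followed in 5 lists written by role, with 81 distinct genes, of which 70 were in the table under the listed symbol. The lists were written with earlier results of these data known, so their shares between hTyr and EYFP are a description. In IP, 0 of the 70 passed between hTyr and EYFP by limma, and voom also called 0. Of these genes 7 had an unadjusted p under 0.05, each of them higher in hTyr (10% of the 70, where 2.88% of all genes were higher and 3.31% lower at that level), and 44 of 70 differences were positive (62.9%, beside 48.2% of all genes). Their median was 0.04, beside -0.01 over all genes. In input 0 passed as well. There 1 gene had an unadjusted p under 0.05, higher in hTyr (1.43% of the 70, beside 0.992% of all genes higher and 2.04% lower). None of the values in the next paragraph for hTyr against EYFP passed the adjusted test.

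Among stress effectors and secreted targets of ATF4 and CHOP (11 in the table), the largest IP differences were Chac1, which degrades glutathione, at 0.66 (SE 0.15), Sesn2, a stress-induced regulator of mTORC1, at 0.63 (SE 0.18), Bbc3, a cell death gene, at 0.29 (SE 0.16) and Vegfa, a vascular growth factor, at -0.26 (SE 0.13). Of 11 genes of amino acid synthesis, the sisters of Asns, the largest were the mitochondrial folate enzyme gene Mthfd2 at 0.31 (SE 0.12), Gpt2 at -0.17, Shmt2 at 0.16 and Cth at -0.13. Of 8 amino acid transporters they were Slc7a5 at 0.37 (SE 0.15), Slc1a4 and Slc7a3 at 0.16 each and Slc38a2 at -0.12. Of 18 genes of eIF2 control they were the eIF2 subunit gene Eif2s2 at 0.29 (SE 0.09), Impact at 0.26, and Nck1 and Dnajc3 at 0.17 each. Of 22 related bZIP transcription factors they were Fosb at 0.34, Junb at 0.29, Atf2 at 0.25 and Jun at 0.23. The libraries of all these genes overlapped between the treatments, and the list medians lay between 0.01 and 0.08.

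In EYFP animals 27 of the 70 (38.6%) were called higher and 15 (21.4%) lower in IP than in input, where 28.5% and 28.1% of all genes were, with a median of 0.07 beside -0.03 over all genes. Amino acid synthesis genes had 8 of 11 higher (72.7%) and 0 lower (median 0.39), among them Cth at 0.78 (limma adjusted p = 0.000483) and Pck2 at 0.60 (adjusted p = 1.06e-05). The eIF2 group had 10 of 18 higher (55.6%) and 1 lower (median 0.23), with Eif2s1 at 1.07, Eif2b3 at 0.98 and the haem-regulated kinase gene Eif2ak1 at -0.35. Transporters had 4 of 8 higher (50%) and 2 lower (25%), with Slc7a11 at 0.66, Slc1a4 at 0.46, Slc7a5 at -0.29 and Slc6a9 at -0.34. The bZIP relatives had 3 of 22 higher (13.6%) and 9 lower (40.9%, median -0.23), with Nfe2l2 at 0.82, Atf6 at 0.56, Mafg at -0.66 and Atf7 at -0.88. Stress effectors had 2 of 11 higher (18.2%) and 3 lower (27.3%), shares near or below those of all genes, with Vldlr at 0.66, Herpud1 at 0.35, Vegfa at -0.74 and Bcl2l11 at -0.86.

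Across the 11 IP libraries, the genes most like Ddit3 were Sdf2l1, an endoplasmic reticulum protein gene (Pearson's r = 0.985), Ppp1r15a (0.971) and Cstb (0.968). For Atf3 they were Hdgfrp3 (0.951), Atg7 (0.927) and Gm4024 (0.923), and Ddit3 itself had an r of 0.75 with Atf3. The most similar gene was Polr2b for Asns (0.979), Ddit3 for Ppp1r15a (0.971), 4930413G21Rik for Atf4 (0.944), Ccdc59 for Atf5 (0.938), Sgk1 for Ddit4 (0.932) and Mrpl38 for Eif2ak3 (0.899). Among members, Atf5 had an r of 0.76 with Ddit3 and 0.75 with Ppp1r15a, Atf4 one of 0.66 with both Ddit3 and Atf5, and Asns one of -0.13 with Ddit3. Atf3 had one of 0.74 with Ppp1r15a, and the lowest of all member pairs was -0.58, for Atf5 with Asns. These libraries share treatment and depth differences, and the r of each most similar gene is the highest of many. All these values are descriptions.

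Upstream start codons belong to the textbook account of how ATF4 is translated. The members were chosen as genes of that pathway, so the counts below are not independent of the choice and are a description. In 1 GENCODE M21 transcript per gene, the 5′ untranslated region held 7 ATG triplets for Ppp1r15a, 3 each for Eif2ak3 and Atf4, 2 each for Atf5 and Ddit3, 1 each for Atf3 and Asns and 0 for Ddit4. At least 1 was present in 7 of 8 members and in 53.9% of 11571 genes of the table with such a region, and at least 2 in 5 of 8 and in 31.6%. The 5′ untranslated region of Ppp1r15a was 764 bases long and that of Atf4 594, beside a median of 193.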

How the data were processed

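RNA was sequenced from IP and input libraries of 11 mice. Per the submitters' processing notes, STAR, featureCounts and the build mm10 were used, without versions, and the filter and normalization are not given in the sources used here. The authors deposited log2 values of 12596 genes. Back-transformed, they are CPM with a mean pseudocount of 2 reads, and 100% of values came out as whole reads (tolerance 0.05). limma 3.58.1 in R 4.3.3 (lmFit, eBayes with trend) was fitted to all genes of the groups compared, with Benjamini-Hochberg adjustment over the table and a threshold of 0.05, and was tested on simulated data. Same-numbered IP and input libraries are taken as 1 animal, and their deviations from group means correlated by 0.28 to 0.63 over 11 pairs (mean 0.45, different animals -0.04). The members and lists were chosen with earlier results of these data known. Named were all members, the 4 genes per list with the largest IP difference, up to 2 per direction called in EYFP IP against input, and the genes most like a member. Transcript lengths came from GENCODE M21. Alternatives were no trend, quantile normalization, median centring, a filter that keeps 75% of genes by mean, 5 CPM as pseudocount, one spread over 22 libraries, the replicate block and leaving out each animal. Voom on recovered reads and an animal-number covariate were chosen after seeing the data. Whether tissue was pooled is not given in the sources used here, so p-values measure the spread between these samples. Figures used Python 3.11.15 and matplotlib 3.10.9.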

Additional observations from a re-analysis of the deposited data

How the results depend on the processing

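Of the members, 2 had an adjusted p under 0.05 between hTyr and EYFP in IP, a description since the list was chosen on that contrast. The count was 1 without the trend in the prior variance (Atf3), 1 after quantile normalization (Ddit3) and 1 among the upper 75% of genes by mean (Ddit3), where Atf3 was not tested. It was 3 with one spread over all 22 libraries, which added Ppp1r15a, and it ranged from 0 to 2 when 1 animal was left out. With the animals from IP_507 on as a covariate it was 2, a setting chosen after seeing the data. The share of all genes called was counted only in the main fits. No count under an alternative or leave-out has that background, so nothing about the members is read from its changes. The calls in input stayed at 0 in every alternative, and those of the 70 pathway genes in IP at 0. The calls of IP against input, 5 in each treatment, ranged from 4 to 5 in both treatments over 8 processing alternatives. With 1 animal left out they ranged from 4 to 5 in EYFP and from 3 to 4 in hTyr. Over alternatives and leave-outs together, Ddit3 was called in 11 of 14 settings in EYFP. In hTyr, Ppp1r15a was called in 6 of 13 and Atf5 in 10 of 13. The replicate block, which keeps the pairing of IP and input, moved the members called for the IP minus input difference from 0 to 1 (Ddit3) and changed no other call. That count ranged from 0 to 1 with 1 animal left out. With a pseudocount of 5 CPM, Atf3 differed by 0.79 in IP and by 0.70 in IP minus input.

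Signs changed for these members. In IP with 1 animal left out, Asns ranged from -0.03 to 0.14 and Ddit4 from -0.04 to 0.17. In input, Asns was 0.01 after median centring and ranged from -0.09 to 0.03 with 1 animal left out, Atf4 from -0.04 to 0.05, Ddit3 from -0.07 to 0.01 and Atf5 from -0.02 to 0.05. For IP against input in EYFP, Atf3 was -0.24 after quantile normalization and -0.02 after median centring, Ddit4 was -0.04 in both, and with 1 animal left out Atf3 ranged from -0.20 to 0.15, Ddit4 from -0.03 to 0.07 and Eif2ak3 from -0.05 to 0.03. The causes were not tested. Atf3 had as few as 35 reads in a library, the fewest of the members, and the reads carry no molecular identifiers. In 32 groups of member values, none held a library far from the rest by Dixon's test, where chance gives about 1.6. The test sets the end library of a group against its nearest neighbour. A pair of high libraries, such as IP_501 and IP_502 for Ddit3, can therefore hide each other.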
